A study of Mus musculus with 6 samples.

Results

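Expression was followed for 8 genes that mark the neural crest, the glia that arise from it and neurons: Sox10, Erbb3, Fabp7, Foxd3, Ednrb, Tubb3, Elavl4 and Prph. The genes were taken by name, and every probe set that the platform annotation gives to 1 of them alone was used, which made 18 of the 45037 probe sets left after array controls. The samples were kidneys of mouse embryos at E13.5, labelled Fz4-/- (3 samples) and Fz4+/+ (3 samples), with 1 pair of genotypes from each of 3 litters. Fz4 is the protein of Fzd4, a Wnt and Norrin receptor. The labels give neither the strain nor the construction of the allele, and they leave unsaid if 1 embryo or several made up a sample, so p-values measure the spread between these samples. Values are log2 expression on Affymetrix MOE430.2 arrays, and a difference is Fz4-/- minus Fz4+/+.

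Neural crest cells leave the dorsal neural tube and give rise to peripheral neurons, Schwann cells and their precursors, melanocytes and the chromaffin cells of the adrenal medulla. In the embryonic kidney, nerve fibres and crest-derived cells enter along vessels and the ureter, and sympathetic ganglia and the adrenal lie next to the organ. Foxd3 and Sox10 are transcription factors of crest and early glia. Erbb3 is the receptor through which neuregulins keep Schwann cell precursors alive, and Ednrb is the receptor through which endothelin 3 acts on migrating crest. Fabp7 is a fatty acid binding protein of early glia. Tubb3 (a neuronal tubulin), Elavl4 (an RNA-binding protein) and Prph (an intermediate filament of peripheral neurons) mark neurons. In bulk kidney RNA, fewer cells of a type and less RNA per cell cannot be told apart.

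The array medians lay between 6.62 and 6.74 log2. Having 6 arrays bounds the precision. Fzd4 itself read 3.58 to 6.22 in Fz4-/- kidneys against 10.31 to 11.21 in Fz4+/+ kidneys on its brightest probe set, the direction the labels give. Its difference of -6.16 ± 0.68 (SE) had limma's unadjusted p of 9.57e-05 but an adjusted p of 0.999988, so Fzd4 was not called either. A second Fzd4 probe set, at -3.44, had the same adjusted p. The lack of a call in this test therefore does not show that a gene was unchanged. Kidney markers were measured for 12 of 14 listed genes, all 12 above the filter on low signal. The first principal component (70.8% of the variance) placed litter 3 at 48.7 and 70.1, away from the other 4 samples at -48.9 to -0.1. The Fz4+/+ sample of litter 2 stood apart on the second (-32.7, the others -10.5 to 20.1).

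None of the 18 probe sets differed between the genotypes past the threshold. A probe set entered the genotype test when its mean over the 6 arrays reached 5.89 log2, the 40th percentile. This held for 9 of the 18 probe sets, from 5 genes (Erbb3, Fabp7, Ednrb, Tubb3 and Elavl4). All probe sets of Sox10, Foxd3 and Prph and 1 of Erbb3 lay below it, where low signal compresses differences, and these were tested in a fit without the filter. The adjusted p from limma came to 0.999988 for all 9 and to 0.999995 for the other 9. Over all 27022 tested probe sets 0 passed an adjusted p of 0.05 (0%). At an unadjusted p under 0.05 there were 0 of the 9 members, beside 239 (0.884%) of all tested probe sets. With litter as a block there were also 0, beside 3.11%. Among all 18, 4 differences were above 0 and 14 below, with a median of -0.08. Over all 45037 probe sets 23393 were above and 21644 below, with a median of 0.0062. The 9 tested members had 3 above and 6 below, beside 16636 above and 10386 below among all tested probe sets. The 9 below the filter had 1 above and 8 below. Among all probe sets under the filter, too, more were below 0 than above, as the counts of all and of tested probe sets imply. The part of low signal in this was not tested.

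**Figure D1:**
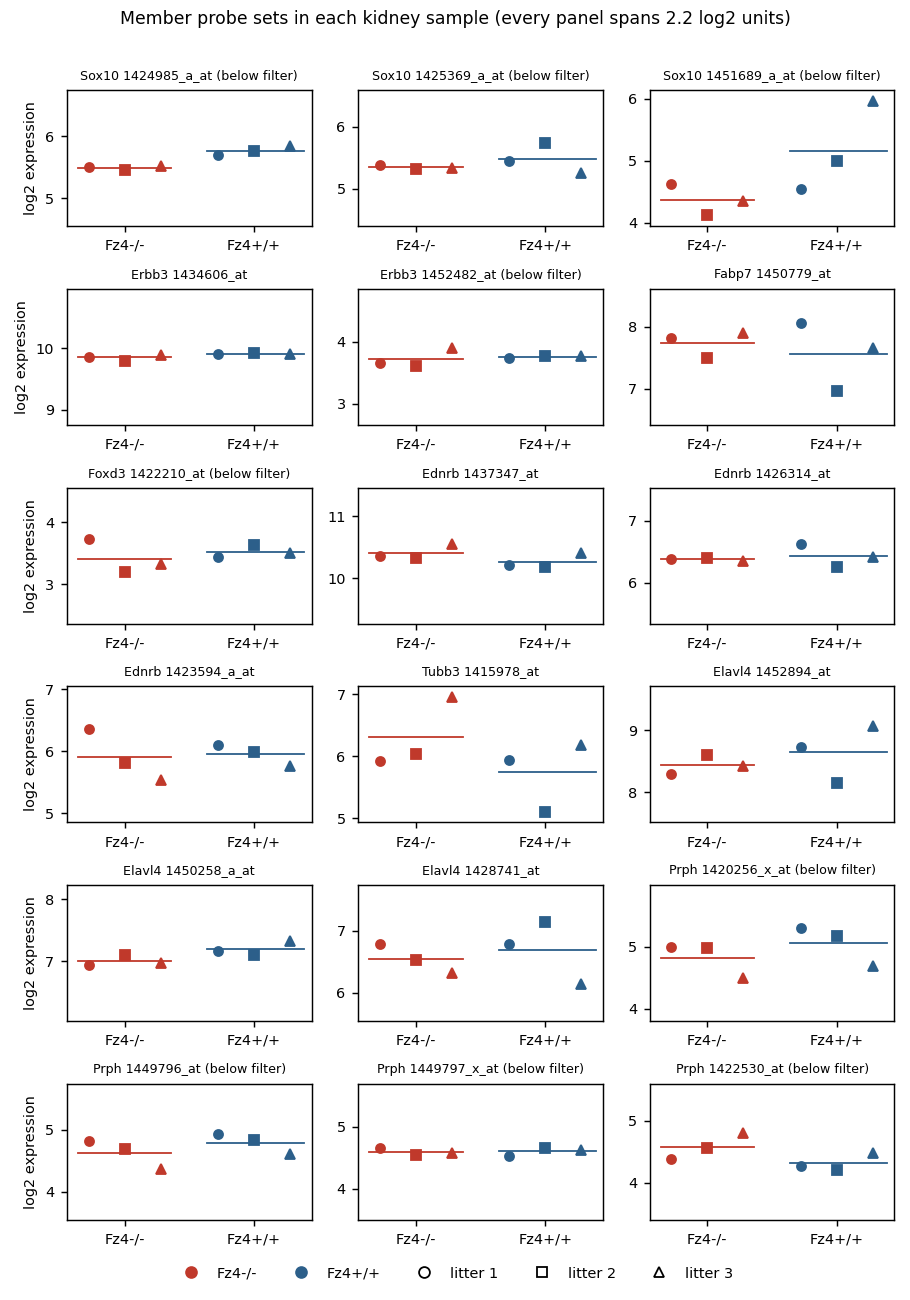
Log2 expression of the 18 member probe sets in every sample, Fz4-/- (red) left of Fz4+/+ (blue), with the litter given by the marker and the group mean by a line. All panels have the same height in log2 units. The groups separate without overlap only for Sox10 1424985_a_at and, by a narrow margin, Erbb3 1434606_at, and Sox10 1451689_a_at and Tubb3 have the widest ranges, 1.85 and 1.86.

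Sequence before a transcript start is shown for Tubb3 and Fabp7, both lowest in the Fz4+/+ sample of litter 2, and for Ednrb, whose brightest probe set had near-equal differences in all litters. RefSeq (GRCm38.p6) gave promoters for 6 of the 8 genes. The 250 bases before a RefSeq transcript start are printed on the gene's strand, with the core motif of SOX proteins, ACAAT or its reverse complement ATTGT, in capitals. They lie at chr8:123411303-123411552 (plus strand) for Tubb3, chr10:57784673-57784922 (plus) for Fabp7 and chr14:103843702-103843951 (minus) for Ednrb. For Tubb3 and Fabp7 this start is the outer end of the annotated gene. For Ednrb it is an inner one, since the gene on the minus strand reaches base 103844508, so that window lies within the annotated gene.
Tubb3: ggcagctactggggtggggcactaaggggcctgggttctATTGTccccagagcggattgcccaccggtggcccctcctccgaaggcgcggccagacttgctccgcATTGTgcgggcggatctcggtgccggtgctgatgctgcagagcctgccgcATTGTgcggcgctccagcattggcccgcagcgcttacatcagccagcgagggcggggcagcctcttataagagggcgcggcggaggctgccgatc
Fabp7: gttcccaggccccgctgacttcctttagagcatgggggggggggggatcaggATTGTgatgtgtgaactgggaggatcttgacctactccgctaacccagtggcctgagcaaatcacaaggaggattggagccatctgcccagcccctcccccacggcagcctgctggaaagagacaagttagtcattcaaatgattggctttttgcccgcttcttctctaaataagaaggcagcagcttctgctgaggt
Ednrb: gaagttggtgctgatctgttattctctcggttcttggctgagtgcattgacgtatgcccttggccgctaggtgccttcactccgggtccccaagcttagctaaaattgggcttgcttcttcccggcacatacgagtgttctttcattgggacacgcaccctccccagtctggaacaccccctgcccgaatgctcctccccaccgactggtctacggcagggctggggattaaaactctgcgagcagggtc
The motif was found 3 times before Tubb3, beginning 211, 145 and 95 bases upstream, 1 time before Fabp7 at 198 bases, and not in this window of Ednrb. With both strands read and overlapping matches counted, 27.7% of 32851 RefSeq promoters of this length hold it. These matches describe letters and do not show binding.

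Sox10, which drives and maintains the glial fate of crest cells, read lower in Fz4-/- kidneys on the brightest of its 3 probe sets. With litters 1 to 3 in order, 1424985_a_at read 5.51, 5.45 and 5.52 in Fz4-/- kidneys, against 5.70, 5.76 and 5.84 in Fz4+/+ kidneys. Every Fz4-/- sample was below every Fz4+/+ sample. The difference was -0.27 ± 0.10 (SE), with limma's unadjusted p of 0.0380 in the fit without the filter and an exact two-sided permutation p of 0.1, the smallest that 3 against 3 can give. limma's unadjusted p was 0.015 with litter as a random effect and 0.00769 with array weights. It was 0.0504 with litter as a block, 0.0865 after quantile normalization and 0.181 with an intensity trend, and lay between 0.0554 and 0.120 with 1 sample left out. Among the 27022 tested probe sets, 6084 had an unadjusted p under 0.05 in limma with array weights. With litter as a random effect there were 940, against 239 in the main setting. In that setting Sox10 1424985_a_at was 1 of 18 member probe sets with an unadjusted p under 0.05, beside 1.25% of all probe sets. For that share, those below the filter were taken from the fit without it. As for overlap, 2 of 18 were lower without overlap (the other was Erbb3), beside 2.44% of all probe sets. None was higher without overlap, beside 2.13%.

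The other Sox10 probe sets did not separate the genotypes. On 1451689_a_at the Fz4-/- samples read 4.62, 4.12 and 4.36, against 4.54, 4.99 and 5.97 in Fz4+/+. The Fz4+/+ samples of litters 2 and 3 were above all others, and that of litter 1 was within the Fz4-/- range. The difference of -0.80 ± 0.37 (SE) became -0.40 when the litter 3 Fz4+/+ sample was dropped, and also when both of litter 3 were. On 1425369_a_at the readings were 5.38, 5.32 and 5.34 in Fz4-/- and 5.44, 5.74 and 5.25 in Fz4+/+, and litter 3 ran the other way from litters 1 and 2. Its difference, -0.13 ± 0.15 (SE), was -0.0008 without the Fz4+/+ sample of litter 2.

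Chromaffin genes mark another crest derivative that shares precursors with glia. Their mean level, though not that of every gene, was highest in the same Fz4+/+ samples as Sox10 1451689_a_at. Chgb, a granule protein of chromaffin cells and neurons, read 5.79, 5.92 and 6.88 in Fz4-/- kidneys, against 6.07, 8.75 and 9.36 in Fz4+/+ kidneys. It thus was highest in the Fz4+/+ samples of litters 3 and 2, and low in both samples of litter 1. The mean log2 level of the 14 chromaffin genes with a probe set lay between 5.77 and 6.07 in Fz4-/- and between 6.04 and 6.78 in Fz4+/+. Th (tyrosine hydroxylase), Dbh, Phox2a, Hand2 and Insm1 were below the filter. Of the 9 tested, 1 was above 0 (Gata3, 0.17) and 8 below, with a median difference of -0.70, which was -0.41 without the Fz4+/+ sample of litter 2. Gata3 and Ddc were lowest in the Fz4+/+ sample of litter 2, at 8.46 and 6.80. Hand1 was highest in the Fz4-/- sample of litter 1. Ddc and Hand1 differed by -0.07 and -0.13. Fz4-/- minus Fz4+/+ was -1.86 for Chgb (-2.86 to -1.21 with 1 sample left out), -1.19 for Isl1 (-0.51 without the litter 2 Fz4-/- sample), -0.71 for Pnmt and -0.70 for Slc18a1 (-0.41 without the litter 2 Fz4+/+ sample), and the limma adjusted p of each was 0.999988. Pnmt, the enzyme that makes adrenaline, was 1 of the 9 with an unadjusted p under 0.05 (0.0163), beside 94 of all 12535 tested genes. The lists of striated muscle, melanocyte and kidney genes each held 1 as well. These were Actn2, Mitf and Cited1, with limma's unadjusted p of 0.0261, 0.0196 and 0.0149. In the fit without the filter Th, Dbh, Phox2a, Hand2 and Insm1 differed by -0.72, -0.39, -0.54, -0.06 and -0.07. Th and Dbh, which make catecholamines, and Phox2a were lower without overlap, beside 2.44% of all probe sets, whereas Hand2 and Insm1 overlapped. limma's unadjusted p was 0.0270, 0.0409, 0.0729, 0.696 and 0.832 in this order, and the adjusted p of each was 0.999995. The part of such cells in the Sox10 values was not tested.

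**Figure D2:**
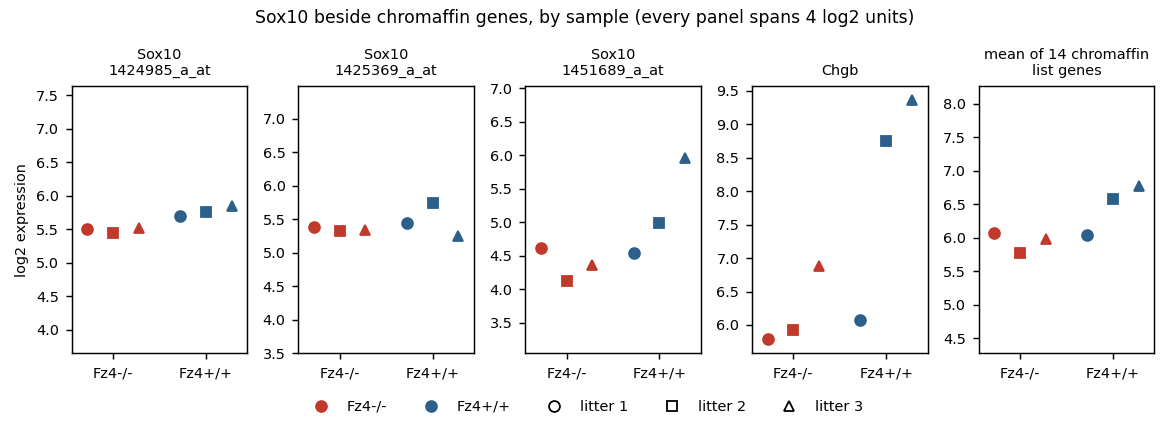
Log2 expression by sample of the 3 Sox10 probe sets, Chgb and the mean of 14 chromaffin genes, Fz4-/- (red) left of Fz4+/+ (blue), litter by marker. The Fz4+/+ samples of litters 2 and 3 are the highest for 1451689_a_at, Chgb and the chromaffin mean, whereas the Fz4+/+ sample of litter 3 is the lowest for 1425369_a_at.

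Erbb3 had the narrowest range of the 18 probe sets. On 1434606_at it read 9.86, 9.80 and 9.89 in Fz4-/- kidneys, against 9.90, 9.92 and 9.91 in Fz4+/+ kidneys. The groups did not overlap, but all 6 samples lay within 0.12 log2, and the difference of -0.06 ± 0.09 (SE) was smaller than its error. limma's moderated error draws on the spread of all probe sets and exceeds this gene's own. The second probe set, 1452482_at, lay near background, at 3.66, 3.61 and 3.90 in Fz4-/- and 3.74, 3.76 and 3.77 in Fz4+/+. Which cells made the Erbb3 RNA was not tested, so its level does not speak for glia alone.

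Fabp7, which Notch and Sox factors switch on in early glia, overlapped between the genotypes and differed in direction between litters. It read 7.82, 7.50 and 7.91 in Fz4-/- kidneys, against 8.07, 6.96 and 7.66 in Fz4+/+ kidneys. Both samples of litter 2 were the lowest of their genotype. The difference of 0.18 ± 0.29 (SE) was -0.12 without the Fz4+/+ sample of litter 2. The litter means were 7.94, 7.23 and 7.78, with limma's F-test among litters at an unadjusted p of 0.0581 and an adjusted p of 0.228.

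Foxd3, the earliest of these crest regulators, stayed near background in all samples. It read 3.73, 3.20 and 3.32 in Fz4-/- kidneys, against 3.44, 3.63 and 3.50 in Fz4+/+ kidneys. The ranges overlapped, and the difference of -0.10 ± 0.17 (SE) was 0.0035 without the Fz4-/- sample of litter 2.

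Ednrb gave the most even pattern across litters. On its brightest probe set, 1437347_at, the Fz4-/- samples read 10.36, 10.33 and 10.56, against 10.21, 10.18 and 10.41 in Fz4+/+. Each Fz4-/- sample was above its litter mate, by 0.147, 0.150 and 0.147 log2, although the groups overlapped because both samples of litter 3 were the highest of their genotype. The difference was 0.15 ± 0.12 (SE), or ± 0.09 with litter as a block, with limma's unadjusted p of 0.266 and 0.152. It was 0.0782 when the litter 3 Fz4-/- sample was dropped. The other probe sets did not share this pattern. On 1426314_at the Fz4-/- samples read 6.38, 6.40 and 6.36, against 6.62, 6.25 and 6.41 in Fz4+/+, and on 1423594_a_at they read 6.36, 5.81 and 5.54 against 6.09, 5.99 and 5.76. Their differences of -0.05 and -0.04 turned above 0 without the Fz4+/+ sample of litter 1, at 0.0503 and 0.0294. That of 1423594_a_at also did so without the Fz4-/- samples of litters 2 (0.0021) or 3 (0.141), or without litter 3 (0.0454). Ednrb is also made by endothelium and stroma in kidney, so its level does not speak for crest alone.

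The ligands and partners of Erbb3 and Ednrb were measured for 11 of 12 listed genes, 6 above the filter. Of those 6, 4 were above 0 and 2 below, with a median of 0.10 (0.16 when the litter 1 Fz4+/+ sample was dropped), beside 63.5% above 0 and a median of 0.03 over all 12535 tested genes, and none was called. Edn3, the ligand of Ednrb on crest cells, read 7.81, 7.90 and 8.38 in Fz4-/- kidneys, against 7.33, 7.37 and 7.98 in Fz4+/+ kidneys. It was higher than its litter mate in all 3 litters, by 0.48, 0.53 and 0.40, with a difference of 0.47 ± 0.24 (SE), or ± 0.09 with litter as a block. limma's unadjusted p was 0.0967, and 0.00495 with the block, where the adjusted p was 0.999986. The difference was 0.30 when the litter 3 Fz4-/- sample was dropped. Nrg1, the neuregulin that Erbb3 binds, read 5.86, 5.82 and 6.14 in Fz4-/- against 5.44, 5.47 and 5.88 in Fz4+/+, below the filter on average and likewise higher in each litter, with a difference of 0.34 ± 0.17 (SE), or ± 0.10 with the block, and limma's unadjusted p of 0.0897 and 0.0254. Erbb2, the kinase partner of Erbb3, differed by 0.27 ± 0.14 (SE) and ran the other way in litter 3 (0.45 without litter 3). Ece1, which cuts endothelins to their active form, read 10.55 to 10.59 in Fz4-/- and 10.43 to 10.46 in Fz4+/+, without overlap, with a difference of 0.12 ± 0.09 (SE). Nrg2, at -0.19, was lower without overlap (-0.12 when the litter 3 Fz4-/- sample was dropped). Egfr and Ece2 differed by -0.10 and 0.08. Edn1, Edn2, Nrg3 and Erbb4, like Nrg1 below the filter, differed by -0.33, -0.09, -0.05 and 0.05. Edn1 was lower in each litter, with an unadjusted p of 0.298, and 0.0374 with the block in limma, and was -0.0535 when the litter 3 Fz4-/- sample was dropped. The adjusted p in the fit without the filter was 0.999995 for each of the genes below it.

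Tubb3 had the widest range among the members above the filter. It read 5.92, 6.04 and 6.96 in Fz4-/- kidneys, against 5.95, 5.10 and 6.18 in Fz4+/+ kidneys. The Fz4-/- sample of litter 3 was the highest and the Fz4+/+ sample of litter 2 the lowest, with the other 4 between 5.92 and 6.18. The difference was 0.57 ± 0.39 (SE), or ± 0.22 with litter as a block, with limma's unadjusted p of 0.192 and 0.0572. Dropping the Fz4-/- sample of litter 3 gave 0.24, and dropping the Fz4+/+ sample of litter 2 gave 0.25. The litter means were 5.93, 5.57 and 6.57, with an F-test p of 0.0439 unadjusted and 0.209 adjusted. RefSeq also lists a pseudogene, Tubb3-ps1, and whether the probe set reads it was not tested.

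The genes whose 6 values, each centred on its mean, lay closest to those of Tubb3 were Nmnat3, Gdap10, Ros1, Sult1a1 and Ovgp1. Their root mean square difference from Tubb3 over the 6 arrays was 0.096 to 0.145 log2. None is a gene of the lists used here. Sox10 was not compared in this way, because its brightest probe set had an SD of 0.16 over the 6 arrays, under the minimum of 0.3.

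**Figure D3:**
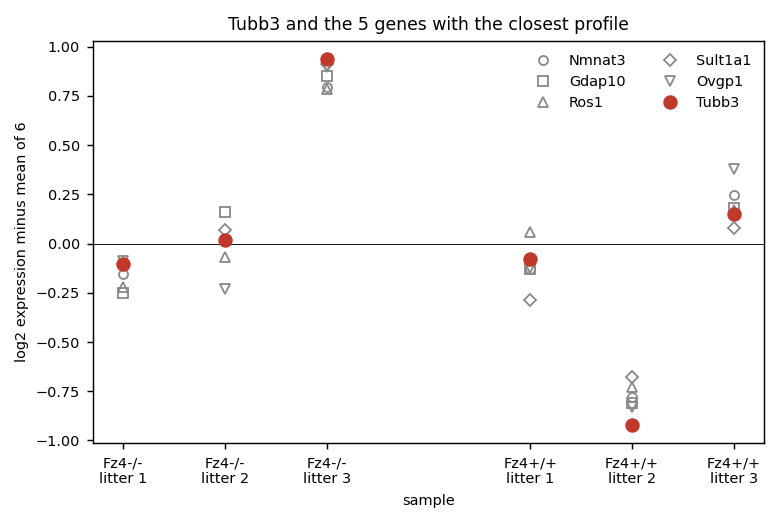
Log2 expression minus the mean of the 6 samples for Tubb3 (red) and the 5 genes with the closest profile (grey), Fz4-/- samples left of Fz4+/+ samples. All 6 genes are highest in the Fz4-/- sample of litter 3 and lowest in the Fz4+/+ sample of litter 2.

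The probe sets of Elavl4, which binds and stabilises neuronal mRNAs, disagreed with each other. On 1452894_at the Fz4-/- samples read 8.30, 8.61 and 8.42, against 8.73, 8.16 and 9.07 in Fz4+/+. On 1428741_at they read 6.80, 6.53 and 6.32, against 6.78, 7.14 and 6.15. The Fz4+/+ sample of litter 2 was the lowest on 1452894_at and the highest on 1428741_at, and the Fz4+/+ sample of litter 3 was the reverse. On 1450258_a_at the readings were 6.93, 7.10 and 6.97 in Fz4-/- and 7.16, 7.10 and 7.33 in Fz4+/+. The differences were -0.21 ± 0.24, -0.14 ± 0.28 and -0.20 ± 0.11 (SE) in this order, with limma's unadjusted p of 0.426, 0.622 and 0.136. That of 1452894_at was 0.0008 when the litter 3 Fz4+/+ sample was dropped and 0.0110 when both of litter 3 were, and that of 1428741_at was 0.0823 without the Fz4+/+ sample of litter 2.

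Prph, a filament of peripheral sensory and autonomic neurons, lay below the filter on all 4 probe sets, and these also differed in direction. On 1422530_at, the only one for which the annotation gives an mRNA record, the Fz4-/- samples read 4.38, 4.55 and 4.80, against 4.26, 4.20 and 4.48 in Fz4+/+, higher in each litter. On 1420256_x_at they read 4.99, 4.98 and 4.49, against 5.31, 5.18 and 4.69, and on 1449796_at 4.82, 4.69 and 4.36, against 4.93, 4.84 and 4.62, lower in each litter on both. On 1449797_x_at all 6 samples lay within 0.13 log2. The ending x_at marks probe sets whose probes can also bind other transcripts. The differences of the 4 were 0.26, -0.24, -0.17 and -0.0084 in this order, and the smallest of their unadjusted p was 0.141. Dropping the litter 3 Fz4-/- sample brought 1422530_at to 0.15, 1420256_x_at to -0.0736 and 1449796_at to -0.0405, and dropping its Fz4+/+ mate brought 1420256_x_at to -0.42 and 1449796_at to -0.26.

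**Figure D4:**
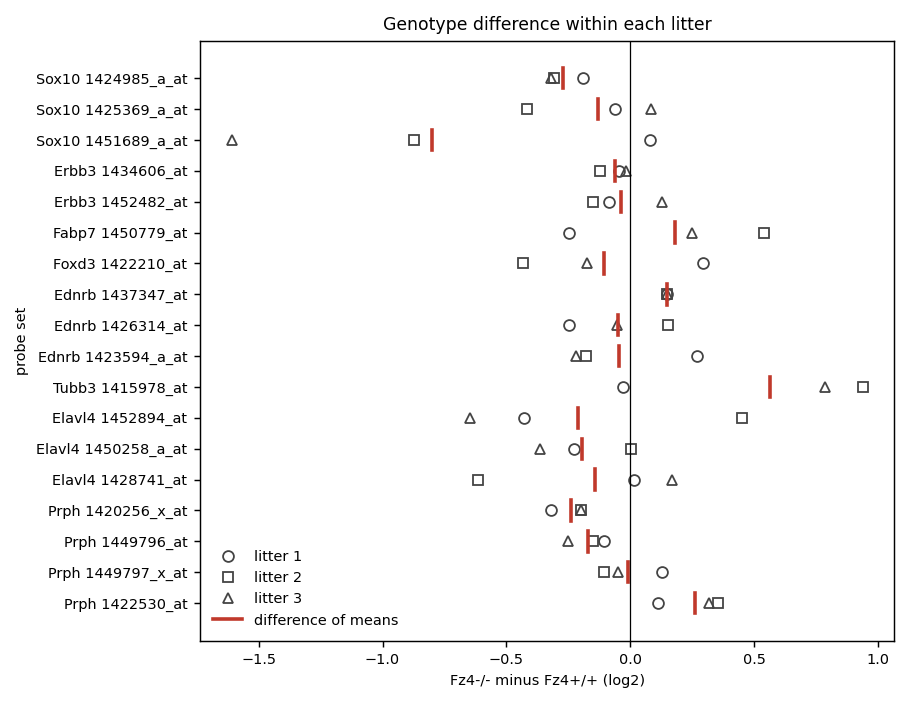
Difference of Fz4-/- minus Fz4+/+ in log2 within each litter (open markers) and between the group means (red bar) for the 18 probe sets. Sox10 1451689_a_at spans -1.61 to 0.08 and Tubb3 -0.03 to 0.94, whereas the 3 litters coincide for Ednrb 1437347_at.

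Within litters, 4 of the 18 probe sets were lower in Fz4-/- in all 3 (1424985_a_at of Sox10, 1434606_at of Erbb3 and a pair of Prph probe sets), beside 10.6% of all probe sets. Another 2 were higher in all 3 (1437347_at of Ednrb and 1422530_at of Prph), beside 11.6%. The others changed direction between litters. The members did not differ among litters past the threshold either. limma's F-test among litters called 0 of the 27022 tested probe sets (0%), with 1 of the 9 tested members, Tubb3, at an unadjusted p under 0.05, beside 23.0%. Both samples of litter 3 lay outside the other 4 for 7 of 18 probe sets, 3 above and 4 below, beside 46.5%. The Fz4+/+ sample of litter 2 was the lowest of the 6 on 6 of 18, beside 26.6%. Litter 3 and this sample were singled out after the principal components were seen.

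The wider lists of crest, glial and neuronal genes held no called gene. Of 14 neural crest regulators 11 were tested, 7 above 0 and 4 below, with a median of 0.04 that turned below 0 without the Fz4-/- sample of litter 1 (-0.0233) or the Fz4+/+ sample of litter 3 (-0.0029), and under quantile normalization (-0.0015). Tfap2b, a crest factor that kidney epithelium also makes, read 0.20 and Snai2 0.12, both higher without overlap, whereas Ngfr, the neurotrophin receptor of crest and glia, and Sox5 read -0.23 and -0.15 (-0.14 for Ngfr without litter 3, -0.0860 for Sox5 when the litter 3 Fz4+/+ sample was dropped). Of 16 glial genes with a probe set 12 were tested, 9 above 0 and 3 below, with a median of 0.07 (0.13 when the litter 3 Fz4+/+ sample was dropped). Pmp22, a myelin protein, and Ptprz1 and Mal read 0.13, 0.32 and 0.47 (Ptprz1 0.12 when the litter 3 Fz4-/- sample was dropped), and Egr2, the regulator of myelination, read -0.61. Egr2 was lower in all 3 litters, by 0.29, 0.61 and 0.94 log2, and its SE of 0.38 was 0.15 with litter as a block. Its difference was -0.23 without the Fz4-/- sample of litter 3. Mal differed by 1.13 in litter 2 and by 0.09 and 0.19 in litters 1 and 3, and its difference was 0.0888 without the Fz4+/+ sample of litter 2. The glial genes Cdh19, S100b, Gfap and Sox2 were below the filter and differed by -0.53, 0.11, -0.07 and -0.71. Of the 16 genes, 3 (Egr2, Cdh19 and Sox2) were lower in all 3 litters, beside 10.6% of all probe sets. Another 4 (Pmp22, Ptprz1, Mal and Ncam1) were higher in all 3, beside 11.6%. Cdh19 was lower and Pmp22 higher without overlap, beside 2.44% and 2.13%. limma's unadjusted p was 0.141 for Cdh19 in the fit without the filter and 0.240 for Pmp22. For Ptprz1 it was 0.252, and 0.0356 with litter as a block. For Sox2 limma's unadjusted p was 0.347, and 0.0109 with litter as a block.

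General neuronal genes had more members below than above 0, and none was called. Of 25 with a probe set 22 were tested, 7 above 0 and 15 below, with a median of -0.15, beside 0.03 over all tested genes. Leaving out 1 Fz4+/+ sample brought the median to -0.07 (litter 2) or -0.09 (litter 3), and leaving out the Fz4-/- sample of litter 1 brought it to -0.08. Gap43, a growth cone protein, read 7.61, 7.63 and 7.66 in Fz4-/- kidneys, against 7.73, 7.81 and 7.86 in Fz4+/+ kidneys. It was lower without overlap, with a difference of -0.17 ± 0.10 (SE) and limma's unadjusted p of 0.120. Rtn1, a reticulon of neuroendocrine cells, read 6.21, 6.24 and 5.66 in Fz4-/- against 6.30, 6.40 and 6.58 in Fz4+/+, also without overlap, and its difference of -0.39 ± 0.19 (SE) was -0.92 in litter 3 (-0.13 without litter 3). Ina, a neuronal filament, and Dpysl3 read -0.45 (-0.27 without litter 3) and 0.21. Within litters, 5 of the 25 were higher in all 3 and 4 lower, beside 11.6% and 10.6% of all probe sets. Nefl and Nefm differed by 0.28 and -0.59, higher and lower in each litter. Their limma unadjusted p was 0.204 and 0.267, and 0.0424 and 0.0147 with litter as a block. Below the filter, Nefh, Mapt and Scg2 differed by -0.21, 0.30 and -0.18, and Mapt was higher in each litter. The limma adjusted p was 0.999988 for each named gene of these 3 lists above the filter. It was 0.999995 for the glial and neuronal genes below it.

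Markers of other tissues also varied between samples. Striated muscle had 1 of 12 tested genes above 0 and 11 below, with a median of -0.80 (-0.26 when the litter 2 Fz4-/- sample was dropped, -0.48 for its Fz4+/+ mate), and Myh3, Actc1, Tnnt2 and Actn2 read -1.16, -0.85, -0.84 and -0.55. When the litter 2 Fz4-/- sample was dropped, Myh3, Actc1 and Tnnt2 were -0.55, -0.50 and -0.38, and when its Fz4+/+ mate was, Actc1 and Actn2 were -0.50 and -0.36. The mean of its 12 genes was 6.36 to 7.71 in Fz4-/- and 7.54 to 8.35 in Fz4+/+, lowest in the Fz4-/- and highest in the Fz4+/+ sample of litter 2. Adrenal cortex and gonad genes had 4 of 10 above the filter, with a median of 0.04 (-0.20 to 0.25 with 1 sample left out, and -0.11 over all 10). The mean of all 10 was 5.85 to 5.97 in Fz4-/- and 5.90 to 6.25 in Fz4+/+. Star, Mc2r, Inha and Cyp21a1 read 0.02, 0.06, 0.18 and -0.26, and Cyp21a1 was -0.0435 without the litter 2 Fz4+/+ sample. The 6 below the filter were all below 0. Nr0b1, a nuclear receptor of adrenal cortex and gonad, differed by -0.67 without overlap (limma's unadjusted p 0.0162, adjusted p 0.999995), Hsd3b1, a steroid enzyme, by -0.92, and Nr5a1, Cyp11a1, Cyp17a1 and Amh by -0.19, -0.02, -0.20 and -0.02. Of 7 melanocyte genes only Mitf and Kit were above the filter, at 0.39 and 0.15, and Mitf, which other kidney cells also make, was higher without overlap. The mean of the 7 was 5.60 to 5.86 in Fz4-/- and 5.38 to 5.75 in Fz4+/+. The 12 kidney markers had 6 above and 6 below 0, with a median of -0.03 (-0.12 to 0.0039 with 1 sample left out), and Cited1, Eya1, Gdnf and Ret read -0.33, -0.26, -0.25 and -0.18 (Gdnf -0.11 when the litter 3 Fz4+/+ sample was dropped). Cited1 and Ret, and Actc1 and Actn2 of striated muscle, were lower without overlap, beside 2.44% of all probe sets. The part of other tissues in the neuronal values was not tested.

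**Figure D5:**
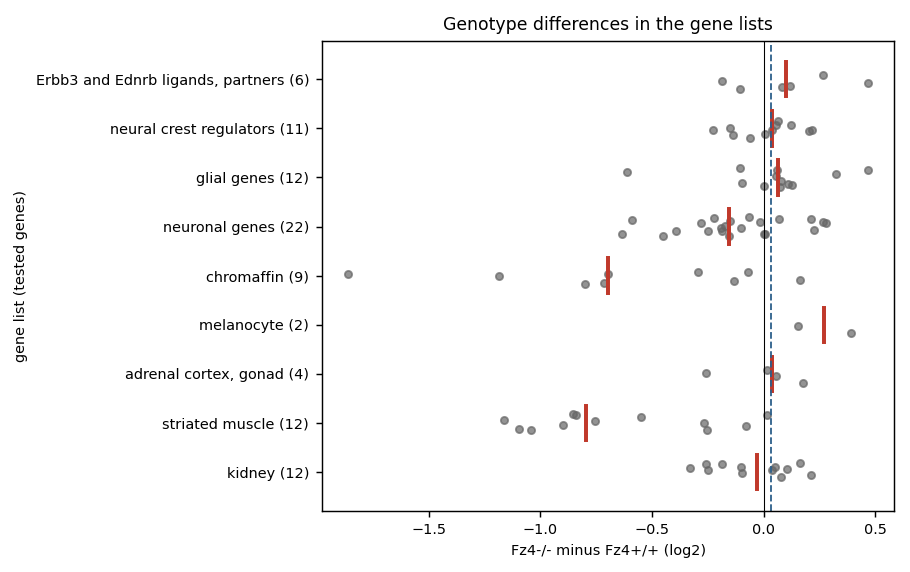
Difference of Fz4-/- minus Fz4+/+ in log2 for each tested gene (grey points, brightest probe set) of the lists, with the list median (red bar), the median of all 12535 tested genes at 0.03 (dashed line) and 0 (black line). The chromaffin and striated muscle medians, -0.70 and -0.80, lie farthest from 0, and the neuronal median is -0.15.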

How the data were processed

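The authors deposited log2 expression values per probe set, made by RMA (version not given in the sources used here) per the submitters' processing notes. RMA brings all arrays to 1 distribution, which hides any change in overall RNA content. The deposited values (2.22 to 14.79 over 45101 probe sets) were used unchanged. Scans and detection calls were not used here.

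The platform annotation gave the gene names, with 34958 given 1 gene, 932 several and 9211 none. Entrez numbers matched RefSeq (GRCm38.p6) for 34754, and 0 symbols changed. After 64 controls were left out, 27022 probe sets with a mean of at least the 40th percentile were tested. The genotype test was limma 3.58.1 under R 4.3.3 (lmFit and eBayes, genotype as the sole term, two-sided, Benjamini-Hochberg over all probe sets, threshold 0.05). Litters were compared by limma's F-test with genotype as a term. Single probe sets were also compared by exact permutation. The fits were also run on simulated data, with noise set by the residual spread of the fit with genotype and litter as terms. The genotype fits were simulated without litter effects. This run therefore does not show how the fit without the block behaves where litters differ.

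The labels give the litter of each sample, which is also its replicate number, and this pairs the genotypes. Deviations from genotype means correlated by 0.577, 0.178 and 0.809 in litters 1 to 3.

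In lists, the brightest tested probe set stood for a gene. Named were all members, Fzd4, all ligands and partners, the 4 genes of each other list with the smallest unadjusted p, and the 5 profiles closest to Tubb3. Members and lists were chosen with earlier results of these data known. Other settings covered the filter, litter as a block or random effect, quantile normalization, array weights, an intensity trend, and each sample or litter 3 left out.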

Additional observations from a re-analysis of the deposited data

How the results depend on the processing

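With 3 samples a genotype and many members near background, small differences could not be told from noise. No member passed an adjusted p of 0.05 for genotype under any setting run (smallest 0.171, Sox10 1424985_a_at with array weights). With the replicate block, genotype called 0 probe sets (841 at an unadjusted p under 0.05, against 239), and no call changed. Each litter holds 1 pair, so the block leaves every difference as it is by construction and moves only errors and p. The count was also 0 under all other settings (124 to 1725 at an unadjusted p under 0.05) except array weights. Array weights called 2 and put 6084 at an unadjusted p under 0.05. The weights ran from 0.22 for the Fz4+/+ sample of litter 3 to 8.81 for the Fz4-/- sample of litter 2. The litter test called 2077 with an intensity trend and between 0 and 1506 with 1 sample left out (1506 without the Fz4-/- sample and 326 without the Fz4+/+ sample of litter 2), against 0. The causes were not tested.

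Of the 18 member probe sets 8 turned direction when some sample was left out. Their ranges were -0.125 to 0.0192 for Erbb3 1452482_at, -0.12 to 0.43 for Fabp7, -0.26 to 0.0035 for Foxd3, -0.14 to 0.0503 and -0.27 to 0.14 for Ednrb 1426314_at and 1423594_a_at, -0.46 to 0.0008 and -0.41 to 0.0823 for Elavl4 1452894_at and 1428741_at, and -0.0437 to 0.0171 for Prph 1449797_x_at. Among 41 other genes named by rule 9 did so: Nrg3 (-0.29 to 0.24), Egfr (-0.30 to 0.0689), Erbb4 (-0.0504 to 0.13), Edn2 (-0.16 to 0.0088), Ece2 (-0.0773 to 0.20), Kit (-0.0263 to 0.44), Star (-0.27 to 0.24), Mc2r (-0.21 to 0.26) and Inha (-0.069 to 0.51).

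Quantile normalization turned Erbb3 1452482_at (0.0072), Prph 1449797_x_at (0.0385) and Star (-0.0073). Array weights turned Fabp7 (-0.34), Nrg3 (0.0876), Egfr (0.0732), Erbb4 (-0.15), Ece2 (-0.0799), Ngfr (0.0061) and Star (-0.11). Leaving out litter 3, a setting added after the data were seen, turned Ednrb 1423594_a_at (0.0454), Elavl4 1452894_at (0.0110), Prph 1449797_x_at (0.0116), Erbb4 (-0.0598), Star (-0.0480) and Mc2r (-0.0072).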

Other observations

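Some genes of the crest, glial and neuronal lists varied far more between samples than most members did. Of 55 such genes with a probe set, 6 spanned over 2 log2 units across the 6 samples, against a median of 0.64. They were picked after their values were seen and are described without a call, since limma's F-test among litters gave adjusted p of 0.140 to 0.432 for them. Stmn2, a tubulin-binding protein of growing axons, read 8.84 in the Fz4-/- sample of litter 2 and 8.99 in that of litter 3, and 8.91 and 8.94 in the Fz4+/+ samples of these litters. In litter 1 it read 6.84 in Fz4-/- and 7.40 in Fz4+/+. Nefm, the medium neurofilament, had litter means of 5.62, 6.07 and 6.99.

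Another group was lowest in litter 3. Sox2, a factor of neural progenitors and glia, read 5.79, 5.12 and 3.60 in Fz4-/- kidneys of litters 1 to 3, against 6.09, 6.13 and 4.43 in Fz4+/+ kidneys. Zic1, a factor of the dorsal neural tube, read 5.59, 4.31 and 3.60 in Fz4-/-, against 5.44, 6.23 and 3.64 in Fz4+/+. Elavl3, a neuronal relative of Elavl4, read 7.54, 5.35 and 5.41 in Fz4-/-, against 6.96, 7.90 and 5.35 in Fz4+/+. Elavl3 was thus low in the Fz4-/- sample of litter 2 as well as in litter 3, and Zic1 was intermediate there. Syt1, a synaptic vesicle protein, read 7.75, 6.54 and 7.02 in Fz4-/-, against 7.46, 8.04 and 5.14 in Fz4+/+, so it was lowest in the Fz4+/+ sample of litter 3. Stmn2 and Elavl3, both neuronal, therefore ran opposite ways between litters 1 and 3. What differs between the litters was not tested.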
